A study of Mus musculus with 9 samples.

Results

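The genes described here are the Fc receptors of myeloid cells and their adaptors, that is Fcgr1, Fcgr2b, Fcgr3, Fcgr4, Fcer1g, Fcrls and Tyrobp, followed across 9 arrays of cultured mouse lung cells. They were found as every probe set whose single gene symbol in the platform annotation was one of these 7, which gave 12 of the 45037 probe sets analysed. Fcgr2b had 5 probe sets, Fcgr1 had 2 and each of the other genes had 1. The genes were selected on earlier results of these same arrays, in which Fcgr1 and Fcrls stood among the largest differences between knockout and wild-type cells, so their levels and differences are given as a description with no test. A filter on low signals, which kept the probe sets whose mean log2 signal reached the median of all (22519), was passed by 11 of the 12, and every gene kept at least 1.

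The study measured gene expression in lung cells that the labels call type II cells, the surfactant-making epithelial cells of the alveolus on Affymetrix arrays of the mouse genome. The 3 groups held 3 arrays each. They were Nrf2-/- cells supplemented with GSH (glutathione, as the abbreviation is commonly read), Nrf2-/- cells without it, and Nrf2+/+ cells. All donors were labelled as female ICR10 mice aged 2 months, every culture lasted 5 days, on a coat of collagen and fibronectin and in medium that held keratinocyte growth factor, and the treatment field of all 9 arrays reads that none was given. Nrf2, encoded by Nfe2l2, is a transcription factor best known for inducing antioxidant enzymes, and the knockout was in the whole animal as far as the labels say. Before culture, the preparation was incubated on plates coated with IgG to take away macrophages and then on plain dishes to take away fibroblasts. Neither the dose nor the duration of the supplement is stated in the labels used here. Whether replicate arrays stand for different mice or different wells is not stated either, so the errors below measure only the spread between arrays, which may be technical, and 3 arrays a group limit the precision.

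Fc receptors are surface proteins that bind the constant part of antibodies and so tie antibody-coated particles to phagocytes. Fcgr1, Fcgr3 and Fcgr4 encode activating receptors for IgG, which in mice assemble with the common gamma chain encoded by Fcer1g. That chain carries an immunoreceptor tyrosine-based activation motif (ITAM), which Src-family kinases phosphorylate and on which the kinase Syk docks. Fcgr2b encodes the inhibitory IgG receptor, whose own inhibitory motif (ITIM) recruits the phosphatase SHIP1. Tyrobp encodes DAP12, another ITAM adaptor, used by receptors such as Trem1 and Trem2 rather than by the IgG receptors. Fcrls encodes a secreted scavenger-receptor-like relative of the Fc receptors, known in mice as a mark of microglia.

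The promoters of Fcgr1, Fcgr4 and Fcrls are shown because these 3 genes departed from the rest of the family in the GSH-supplemented cells. The sequences are those of RefSeq on build GRCm38.p6, each with 250 bases before and 50 after the gene's start, and 6 of the 7 genes matched the promoter table. The gene without a match was Tyrobp, which was among those higher with GSH, so the genes that rose are not all covered. Capitals mark matches on either strand to AGGAAGT, a core bound by PU.1 and other ETS factors, or to TTCNNNGAA, a core bound by STAT factors.
Fcgr1 promoter, chr3:96293920-96294219, minus strand: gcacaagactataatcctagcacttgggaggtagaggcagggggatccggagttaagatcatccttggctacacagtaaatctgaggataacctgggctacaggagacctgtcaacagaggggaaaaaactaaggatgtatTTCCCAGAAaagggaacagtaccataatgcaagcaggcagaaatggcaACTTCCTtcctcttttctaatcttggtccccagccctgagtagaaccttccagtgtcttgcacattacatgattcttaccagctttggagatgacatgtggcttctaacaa
Fcgr4 promoter, chr1:171018676-171018975, plus strand: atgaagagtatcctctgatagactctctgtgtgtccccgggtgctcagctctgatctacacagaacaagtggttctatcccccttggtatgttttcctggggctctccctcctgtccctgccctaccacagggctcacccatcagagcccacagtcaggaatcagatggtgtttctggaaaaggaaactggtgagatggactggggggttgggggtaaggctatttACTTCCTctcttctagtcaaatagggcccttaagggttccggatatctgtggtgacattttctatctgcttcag
Fcrls promoter, chr3:87263475-87263774, minus strand: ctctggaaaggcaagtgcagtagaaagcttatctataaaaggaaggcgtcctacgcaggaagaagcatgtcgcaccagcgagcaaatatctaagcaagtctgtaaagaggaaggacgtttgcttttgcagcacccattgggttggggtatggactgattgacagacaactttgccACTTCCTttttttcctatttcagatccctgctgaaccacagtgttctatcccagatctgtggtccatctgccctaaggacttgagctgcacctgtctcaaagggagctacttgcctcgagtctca
All 3 held ACTTCCT, the reverse complement of AGGAAGT, beginning 61 bases before the start in Fcgr1, 24 in Fcgr4 and 75 in Fcrls. Fcgr1 alone of the 6 held a TTCNNNGAA match, beginning 109 bases before the start, which did not overlap its ACTTCCT. No promoter of Fcgr2b, Fcgr3 or Fcer1g held either core, and none of the 6 genes' promoters held TGACNNNGC, the core of the antioxidant response element to which Nrf2 binds. Of all 32851 promoters of this length, 9.4% held AGGAAGT, 8.3% TTCNNNGAA and 12.4% TGACNNNGC on either strand. A match is a run of letters and not a shown binding site, and the motifs were chosen after the values had been seen.

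Nfe2l2 signals were 41.6 ± 7.2 in knockout cells with GSH, 59.9 ± 27.1 in knockout cells and 3980.4 ± 167 in wild-type cells (SD, n = 3 each, arbitrary units), by the probe set that passed the filter. Another Nfe2l2 probe set, which did not pass, read 148 ± 36.1, 46.7 ± 19.0 and 42.2 ± 8.32 in the same order. Xist, the RNA of the inactive X chromosome, read 3510.0 ± 1112 with GSH, 3203 ± 1248 in knockout and 157 ± 28.2 in wild-type cells by its brightest probe set, and the Y-linked Eif2s3y read 7.4 ± 7.68, 9.3 ± 13.1 and 801 ± 121, against the female label of all arrays. These sex-linked signals and the genotype cannot be told apart in either comparison with wild type. A numeral in each sample title, called the set here, assigns 2 arrays of every group to set 2 and 1 to set 3, and the labels do not say what it stands for. Arrays of 1 group correlated at 0.979 to 0.99 within a set and at 0.95 to 0.968 between sets. The defining type II transcript Sftpc was dim and below the filter, at 108 ± 30.3 with GSH, 89.1 ± 48.7 in knockout and 37.3 ± 10.3 in wild-type cells, and was above the array's control level on none of the 3 wild-type arrays. That level is the 95th percentile of 27 probe sets for bacterial genes and lay between 43.4 and 82.9. Of 26 macrophage transcripts described further on, 24 passed the filter, and Cd163 and Timd4 did not. Adgre1 and Cd68 were bright on every array.

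Every Fc receptor and adaptor gene had more signal in knockout than in wild-type cells. The difference ranged between 0.59 on the log2 scale for Tyrobp and 2.84 for Fcrls. Its median was 1.49 over the 11 probe sets and 0.00 over all 22519. Fcgr2b supplied 4 of the 11, so the median over probe sets leans on that gene. The rule applied to the whole array, a Benjamini-Hochberg adjusted limma p under 0.05, took in 11 of the 11 as higher in knockout and 0 as lower, beside 14.6% higher and 14.6% lower of all probe sets. The knockout arrays lay above all wild-type arrays for 11 of the 11, beside 15.8% of all probe sets. Since these genes were chosen with this contrast known, nothing is read from those counts. In RNA from mixed cultures, fewer cells of a type and less RNA per cell cannot be told apart.

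Both adaptors were highest with GSH and lowest in wild-type cells. Fcer1g, the common gamma chain, read 14704.9, 13722 and 12240.1 on the arrays with GSH, 8569, 9603 and 9007 in knockout and 4241, 4268.5 and 4433 in wild-type cells. The groups formed 3 steps with no overlap, wild type lowest and GSH highest. The knockout mean of 9059.6 ± 519 was 2.10-fold the wild-type mean of 4314 ± 104 (log2 difference 1.07 ± 0.074, limma SE, 95% interval 0.91 to 1.23). Tyrobp, the DAP12 adaptor, read 17919, 16259 and 13366.5 with GSH, 8880.2, 9968 and 9798 in knockout and 6304, 6429.7 and 6238 in wild-type cells. It had the same order of groups with no overlap, and the smallest knockout difference of the family, 0.59 ± 0.089 (95% interval 0.40 to 0.79).

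**Figure D1:**
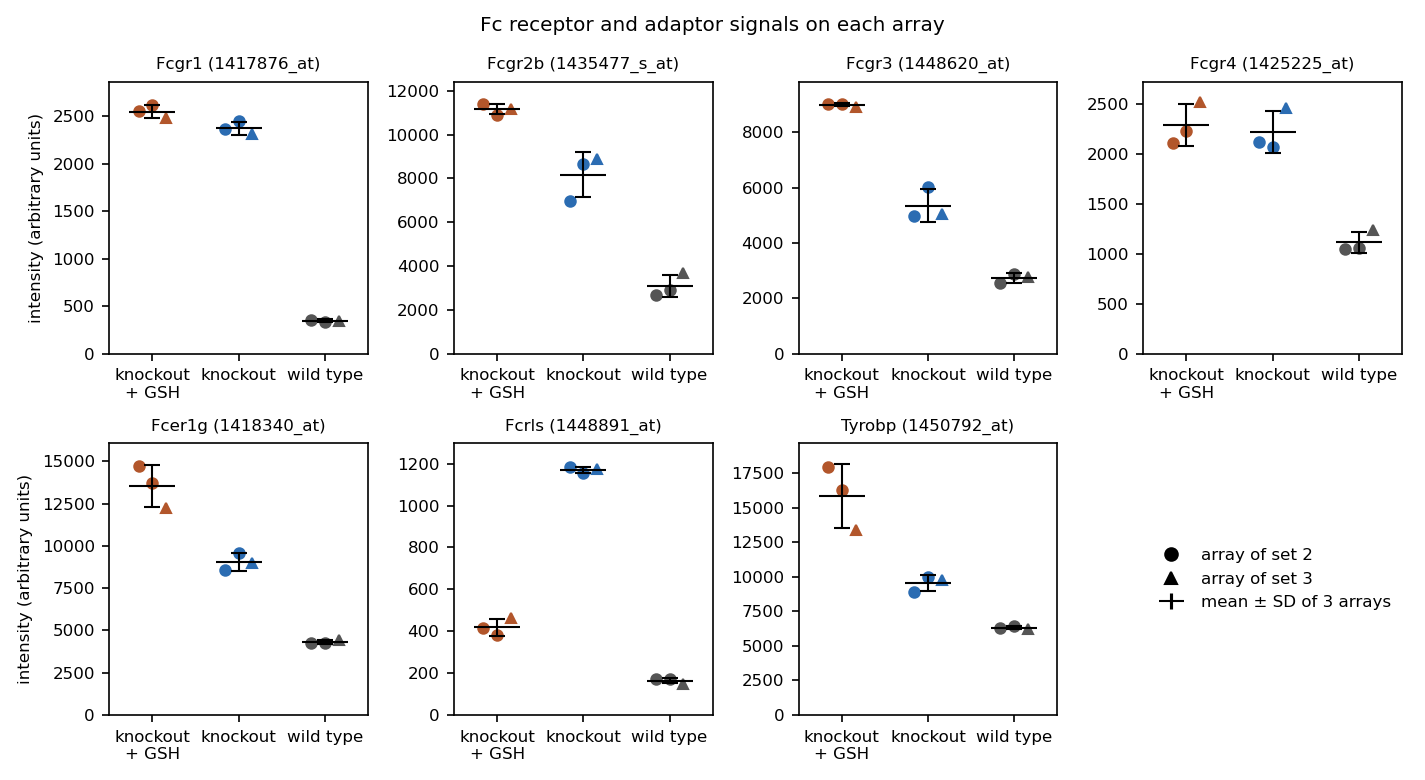
Intensity in arbitrary units (y, from 0) of the brightest probe set of each gene on the arrays of knockout cells with GSH, knockout cells and wild-type cells. Circles are arrays of set 2, triangles arrays of set 3, and bars the mean ± SD of 3 arrays. Fcgr2b, Fcgr3, Fcer1g and Tyrobp are highest with GSH and lowest in wild type, Fcgr1 and Fcgr4 stand close in both knockout groups (2551 against 2375 and 2283 against 2213), and Fcrls peaks in knockout cells at 1171.

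Among the activating receptors, Fcgr1, the high-affinity IgG receptor, stood furthest apart. Its brighter probe set read 2555, 2614 and 2483 with GSH, 2363, 2449 and 2313.5 in knockout and 358.5, 334.7 and 347.8 in wild-type cells. Both knockout groups lay far above wild type, and the lowest array with GSH only just exceeded the highest knockout array. The knockout mean of 2375 ± 68.6 against 347.0 ± 11.9 in wild type gave a 6.85-fold difference (log2 2.78 ± 0.068, 95% interval 2.63 to 2.92). This difference ranked 16 from the highest increase among the 22519 probe sets, with falls ranked last. The dimmer Fcgr1 probe set read 672.6, 656.7 and 713.2 with GSH, 555.5, 524.5 and 625.8 in knockout and 136.7, 127.0 and 131.3 in wild-type cells. It had the same order of groups and a smaller knockout difference, 2.11 ± 0.112.

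Fcgr3, a low-affinity activating receptor, read 9015, 9022 and 8926 with GSH, 4956, 6029 and 5038 in knockout and 2546.5, 2878 and 2759.8 in wild-type cells. These were 3 separate steps, and the knockout difference was 0.97 ± 0.081 (95% interval 0.79 to 1.14). Fcgr4, a mouse activating receptor of intermediate affinity, read 2109, 2225 and 2516 with GSH, 2114, 2068.5 and 2456 in knockout and 1049, 1056 and 1234 in wild-type cells. The GSH and knockout arrays overlapped, both lay above wild type, and the knockout difference was 0.99 ± 0.061 (95% interval 0.86 to 1.12).

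Fcgr2b, the inhibitory receptor, was covered by 4 probe sets above the filter, which gave knockout differences of 1.41 to 1.94. The brightest of them read 11382.5, 10910.7 and 11188 with GSH, 6987, 8656 and 8887 in knockout and 2693, 2923 and 3673 in wild-type cells. The groups formed 3 steps with no overlap on each of the 4. The difference was 1.41 ± 0.095 for 1435477_s_at, 1.49 ± 0.079 for 1435476_a_at, 1.56 ± 0.065 for 1451941_a_at and 1.94 ± 0.089 for 1455332_x_at. The suffixes _s_at and _x_at mark probe sets whose probes can match more than 1 transcript sequence, and Fcgr2b and Fcgr3 share closely similar outer parts, so a contribution of one gene's RNA to the other's signal was not tested. The fifth Fcgr2b probe set, 1447622_at, did not exceed the control level on any array, with signals of 4.7 to 7.4 with GSH, 2.6 to 43.6 in knockout and 2.2 to 3.4 in wild-type cells, and no fold is given for it.

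Fcrls had the largest knockout difference of the family and the only one that turned back with GSH. It read 413.4, 381.8 and 462.4 with GSH, 1183.5, 1156 and 1173 in knockout and 171.2, 170.1 and 149.2 in wild-type cells. The knockout arrays were highest, the GSH arrays lay between and the wild-type arrays were lowest, with no overlap of any pair of groups. The knockout mean was 7.18-fold the wild-type mean (log2 2.84 ± 0.116, 95% interval 2.59 to 3.10), ranking 14 from the highest increase among the 22519 probe sets.

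The GSH-supplemented knockout cells were set against knockout cells without it, and here the family divided. Fcer1g, Tyrobp, Fcgr3 and Fcgr2b were higher with GSH, Fcgr1 and Fcgr4 differed little, and Fcrls was lower. The largest positive difference was that of Fcgr3, 0.76 ± 0.081 (95% interval 0.58 to 0.93), a mean of 8988 ± 53.5 with GSH against 5341 ± 597 in knockout. Tyrobp followed with 0.72 ± 0.089 and Fcer1g with 0.58 ± 0.074, and the 4 Fcgr2b probe sets gave 0.46 to 0.60.

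For Fcgr4 the difference was 0.05 ± 0.061, with a 95% interval of -0.09 to 0.18. For Fcgr1 it was 0.10 ± 0.068 (95% interval -0.05 to 0.25) by the brighter probe set and 0.26 ± 0.112 (0.02 to 0.51) by the dimmer one. Fcrls was 2.80-fold lower, a mean of 419.2 ± 40.6 with GSH against 1171 ± 13.9 in knockout (log2 difference -1.49 ± 0.116, 95% interval -1.74 to -1.23). The rule applied to the whole array took in 7 of the 11 probe sets as higher and 1 as lower, beside 18.4% higher and 17.0% lower of all probe sets. By gene, 4 of 7 were higher and 1 lower. The GSH arrays lay above all knockout arrays for 9 of the 11, beside 17.2% of all, and below them for 1, beside 16.4%. These were probe sets of 5 of the 7 genes above and 1 below. The median difference was 0.50 over the 11, of which 4 were of Fcgr2b, and 0.04 over all probe sets.

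Set against wild type, GSH-supplemented knockout cells had more signal of every member. The differences were 2.88 ± 0.068 for Fcgr1 by its brighter probe set, 1.86 to 2.46 for Fcgr2b, 1.72 ± 0.081 for Fcgr3 and 1.65 ± 0.074 for Fcer1g. Fcrls followed with 1.36 ± 0.116, Tyrobp with 1.32 ± 0.089 and Fcgr4 with 1.04 ± 0.061. The rule took in 11 of the 11 as higher, beside 22.5% higher and 22.3% lower of all probe sets, and no array with GSH overlapped a wild-type array, beside 22.3% of all probe sets that were higher without overlap. Knockout arrays serve both of the first comparisons and wild-type arrays 2 of the 3, so the differences are not independent of each other.

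**Figure D2:**
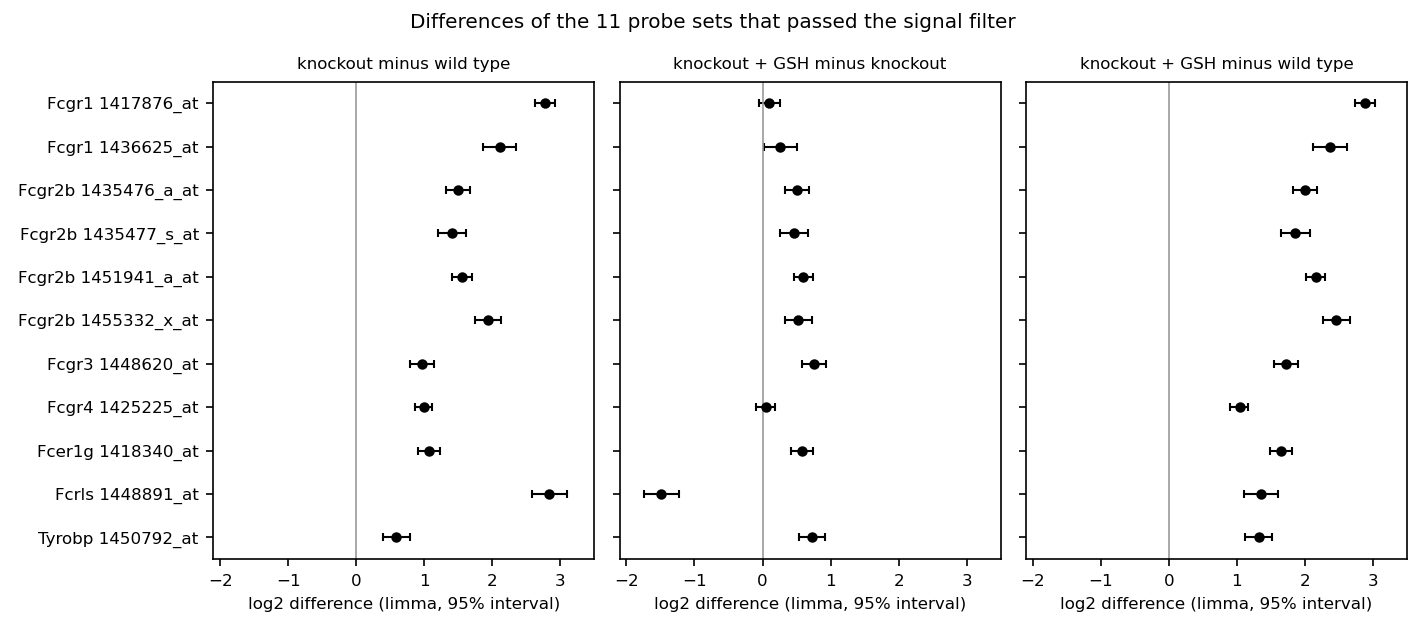
Log2 differences from limma (x) with 95% intervals for the 11 probe sets above the signal filter (rows), in knockout minus wild type, knockout with GSH minus knockout, and knockout with GSH minus wild type. All points lie right of 0 in the comparisons with wild type, and in the middle panel Fcrls stands alone on the left at -1.49 while Fcgr4 stands at 0.05.

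The differences were unequal among the members, and their ratios depended on the probe set for Fcgr1 and Fcgr2b. Relative to its partner chain Fcer1g, Fcgr1 was 3.26-fold higher in knockout than in wild type by its brighter probe set (difference of the log2 differences 1.71, 95% interval 1.52 to 1.89). By the dimmer probe set it was 2.05-fold higher (1.04, 0.75 to 1.32). The same comparison gave -0.10 for Fcgr3 (95% interval -0.33 to 0.13) and -0.08 for Fcgr4 (-0.31 to 0.15). Relative to the chain and with GSH against knockout, Fcgr4 gave -0.53 (-0.76 to -0.31) and Fcgr3 gave 0.18 (-0.05 to 0.41). Fcgr1 gave -0.48 (-0.66 to -0.29) there by the brighter probe set and -0.32 (-0.60 to -0.03) by the dimmer one. These values describe genes chosen on these arrays and carry no test.

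Inhibitory Fcgr2b relative to activating Fcgr3 gave 0.44 to 0.97 in knockout against wild type over its 4 probe sets, the lowest by the brightest (95% interval 0.23 to 0.65). The 4 probe sets gave -0.30 to -0.16 with GSH against knockout, with -0.30 (-0.51 to -0.09) by the brightest and -0.16 (-0.44 to 0.12) by 1451941_a_at. Fcer1g relative to Tyrobp gave 0.48 (0.36 to 0.60) in knockout against wild type. Fcrls relative to Fcgr1 gave 0.07 (-0.22 to 0.36) in knockout against wild type by the brighter Fcgr1 probe set and 0.74 (0.52 to 0.95) by the dimmer one. It gave -1.59 (-1.88 to -1.30) by the brighter and -1.75 (-1.97 to -1.53) by the dimmer with GSH against knockout. The other probe sets were added after the values had been seen. Over the 9 arrays, with the brightest probe set of each gene, log2 signals of Fcer1g correlated with those of Fcgr3 at 0.99, Fcgr2b at 0.98 and Tyrobp at 0.97, whereas Fcrls correlated with Tyrobp at 0.41 and with Fcgr3 at 0.53. These coefficients are a description of 9 arrays that fall into 3 groups and share their set and scaling.

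Within set 2 and within set 3 the family had the same directions. The knockout difference was 2.80 in set 2 and 2.73 in set 3 for Fcgr1, 1.09 and 1.02 for Fcer1g, 0.56 and 0.65 for Tyrobp and 2.78 and 2.98 for Fcrls. With GSH against knockout the sets gave -1.56 and -1.34 for Fcrls, 0.72 and 0.83 for Fcgr3 and 0.65 and 0.44 for Fcer1g. The set-3 GSH array had the lowest Tyrobp of its group, and the Tyrobp difference was 0.86 in set 2 and 0.45 in set 3. Set 3 holds 1 array a group, so its values have no error.

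The genes that carry Fc receptor signals were listed apart from the receptors, with earlier results of these arrays known. The list held 32 genes, for kinases, scaffolds, phosphatases and other signalling proteins. Of these, 30 had a probe set with 1 symbol and all 30 passed the filter. Counts for this and the later lists stand against 14.6% higher and 14.6% lower of all probe sets in knockout against wild type, and 18.4% and 17.0% with GSH against knockout. Against wild type, 21 rose and 1 fell in knockout cells, with a median log2 difference of 0.73 beside 0.00 over all probe sets. Rac2, the small GTPase of phagocyte motility and oxidant production, averaged 8526 ± 1278 in knockout and 3379.5 ± 337 in wild type (1.33, limma adjusted p = 4.3e-08), and the signalling adaptors Pik3ap1 and Lcp2 rose by 1.79 and 1.34. Lat, a scaffold best known from T cells and named after its values were seen, was the 1 that fell, with 66.6 ± 17.4 in knockout against 168.9 ± 33.0 in wild type, and 2 of 3 knockout arrays lay above the control level.

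With GSH against knockout, 22 of the 30 rose and 2 fell, with a median of 0.48 beside 0.04 over all. Syk, the kinase that docks on phosphorylated ITAMs, averaged 6810.2 ± 281 with GSH and 3313 ± 127 in knockout (1.04, limma adjusted p = 3e-07). The Src-family kinase Fgr rose by 1.12 and the adaptor Blnk by 0.82, and Fyn and Plcg1, named after their values were seen, fell by 0.87 and 0.27. Lat, lower in knockout than in wild type, rose by 2.32 with GSH, to 325.3 ± 27.6, and stood 0.96 above wild type there. Against wild type, the GSH cells had 25 of the 30 higher and 2 lower (median 1.20, beside 0.02 over all). Inpp5d, which encodes SHIP1 and was also named after its values were seen, averaged 1220.1 ± 90.1 with GSH, 975.6 ± 87.4 in knockout and 528.7 ± 51.0 in wild-type cells.

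A list drawn up as other receptors that signal through Tyrobp or Fcer1g kept 15 members above the filter of 30 listed. Not all depend on these adaptors. Csf1r, which is also in the macrophage list, is a receptor kinase, and Clec7a has a signalling motif of its own. Of the 15, 8 rose and 0 fell in knockout against wild type (median 0.30, beside 0.00 over all). With GSH against knockout 15 rose and 0 fell (median 0.75, beside 0.04). Trem1, an activating receptor of neutrophils and monocytes, rose by 1.10 in knockout cells (limma adjusted p = 1.4e-05). The C-type lectin receptors Clec4e and Clec4d, which bind microbial glycolipids, averaged 3865 ± 404 and 9206 ± 1038.5 with GSH against 1744 ± 154 and 4567 ± 638 in knockout. Clec4e rose by 1.15 (limma adjusted p = 3.1e-07) and Clec4d by 1.01 there, and both had knockout differences that did not pass the test (0.11 and -0.10).

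A list drawn up as inhibitory myeloid receptors with ITIMs kept 15 members of 20 listed. Not every member carries an ITIM, and Cd200r1 is among those that do not. In knockout against wild type 12 rose and 1 fell (median 1.01, beside 0.00 over all), and with GSH against knockout 12 rose and 0 fell (median 0.73, beside 0.04). Clec4a3, a C-type lectin receptor, averaged 1622 ± 112 in knockout and 289.2 ± 3.58 in wild type (2.48, limma adjusted p = 2.4e-09), and Cd72 rose by 2.00. Siglecf, a sialic-acid-binding receptor of alveolar macrophages and eosinophils, was the 1 that fell (-1.80), and it rose by 1.93 with GSH against knockout (limma adjusted p = 3e-06).

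Of 17 other Fc receptors and Fc-binding proteins listed, 13 were on the array with 1 symbol and 2 passed the filter. Fcgrt, the neonatal Fc receptor that recycles IgG and is not confined to myeloid cells, averaged 1000.2 ± 118 with GSH, 1375.5 ± 111 in knockout and 835.7 ± 105 in wild-type cells. It rose by 0.72 in knockout against wild type (limma adjusted p = 0.00076) and fell by 0.46 with GSH against knockout (limma adjusted p = 0.0089). Trim21, a cytosolic antibody receptor, rose by 0.60 in knockout (limma adjusted p = 0.0017). Fcer1a and Ms4a2, the alpha and beta chains with which Fcer1g forms the IgE receptor of mast cells, did not pass the filter. Fcer1a was above the control level on 0 arrays with GSH, 0 knockout arrays and 1 wild-type array, and Ms4a2 on 2 arrays of each group.

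Myeloid transcription factors kept 17 members of 21 listed, of which 8 rose and 0 fell in knockout against wild type (median 0.30, beside 0.00 over all; 5 rose without the set term). With GSH against knockout 9 rose and 4 fell (median 0.62, beside 0.04). Spi1, which encodes PU.1, averaged 3402 ± 617 with GSH, 2229.9 ± 484 in knockout and 1322 ± 315 in wild-type cells, and rose by 0.76 in knockout (limma adjusted p = 1.6e-05). Irf8, a partner of PU.1 in monocytes, rose by 0.82 and the lymphoid and myeloid regulator Ikzf1 by 0.97. Maf, a macrophage factor, rose by 0.60 in knockout and fell by 0.70 with GSH against knockout (limma adjusted p = 2.5e-06).

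Macrophages usually carry these receptors. Of 26 macrophage markers, 24 passed the filter, and the summed signal of the list was 200659 to 235694 on the arrays with GSH, 155773 to 194886 on knockout arrays and 102780 to 110273 on wild-type arrays. In knockout against wild type 22 rose and 0 fell (median 0.74, beside 0.00 over all and 14.6% called in each direction), and with GSH against knockout 14 rose and 2 fell (median 0.31, beside 0.04 over all and 18.4% higher and 17.0% lower). Adgre1, which encodes F4/80, averaged 13736.5 ± 181 with GSH, 10155 ± 899 in knockout and 4276 ± 606 in wild-type cells, and Cd68 averaged 10672 ± 900, 6341 ± 446 and 3727 ± 106 in the same order. The 2 that fell with GSH against knockout were C1qc (-0.38) and Marco (-0.21). C1qc averaged 1802 ± 262 with GSH, 2369 ± 474 in knockout and 463 ± 96.3 in wild-type cells. Marco averaged 5817 ± 247, 6750 ± 729 and 4236 ± 76.6 in the same order. C1qa (-0.01), C1qb (-0.17), Lyz2 (-0.05) and Mrc1 (0.16) were among those not called there. Cd163 and Timd4 did not pass the filter. The part of the macrophage content in the Fc receptor differences was not tested.

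Alveolar macrophage markers, a list that shares Siglecf with the inhibitory receptors, had 5 higher and 5 lower of 12 in knockout against wild type (median 0.01, beside 0.00 over all). Without the set term 3 were higher, and with a filter at the 70th percentile 3 were lower. With GSH against knockout 9 rose and 2 fell (median 0.91, beside 0.04 over all). Of 15 neutrophil markers, 12 were on the array with 1 symbol and 6 passed the filter, 4 of which rose in knockout and 0 fell (median 0.70, beside 0.00 over all). S100a9 and Ltb4r1 lay at the control level on all 9 arrays. The summed neutrophil list stood at 19879 to 20936 with GSH, 16724 to 18830 in knockout and 5206 to 5810 in wild-type cells. Most of these sums came from Mmp8, at 9750 ± 292, 9112 ± 361 and 2140 ± 55.8, and S100a8, at 6984 ± 423, 6028 ± 1478 and 1421 ± 307. Mpo and Ngp passed the filter and were not called in knockout against wild type (0.14 and -0.11). Elane, Camp, Ltf and Cxcr2 did not pass it. The sums are therefore no measure of neutrophil number.

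Of 19 natural killer and T cell markers, 16 were on the array with 1 symbol and 2 passed the filter, and Nkg7, Cd3d and Cd3g lay at the control level on all 9 arrays. The 2 that passed were Cd8a, at 191.5 ± 18.1 with GSH, 183.0 ± 43.9 in knockout and 179.2 ± 24.5 in wild-type cells, and Thy1, which is also in the fibroblast list, at 440.2 ± 30.2, 1280.9 ± 87.9 and 1940.8 ± 85.2 in the same order. The summed signal of the list, 1486 to 1721 with GSH, 1838 to 2359 in knockout and 2613 to 2897 in wild-type cells, differed mainly by Thy1. Of 15 mast cell and basophil markers 4 passed the filter, and Mcpt4, Mcpt1 and Hdc lay at the control level on all 9 arrays. None of the 4 passed the test in knockout against wild type and 3 fell with GSH against knockout, among them Mcpt8 by 2.90 (limma adjusted p = 9.7e-07), with sums of 1242 to 1578, 2145 to 2362 and 2192 to 2229 in the same order. B cell markers kept 6 of 12 listed, 1 of which, Cd22, rose in knockout (0.66, limma adjusted p = 0.00047). The sums of 3395 to 4460.0, 2480.0 to 2747 and 1897 to 2124 differed mainly by Cd22, at 2468.8 ± 372, 1169.9 ± 87.8 and 738.0 ± 28.5. Ms4a1, Pax5, Ighm, Blk and Mzb1 were not called in any comparison. Dendritic cell markers kept 4 of 13 listed, with sums of 1837 to 2159, 1972 to 2478 and 1665 to 1843. None of the 4 was called in knockout against wild type, and Tcf4 (-0.89) and Zbtb46 (-0.74) fell with GSH against knockout. The sums hide unlike moves. Below the filter, Ccl22 read 380.1 ± 63.3, 259.7 ± 13.7 and 8.6 ± 4.64 and Ccr7 115.3 ± 14.9, 10.4 ± 6.58 and 16.8 ± 17.3. These 4 genes were named after their values were seen.

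Epithelial markers had more signal in both GSH-supplemented and wild-type cells than in knockout cells without GSH. Of 12 measured, 0 rose and 11 fell in knockout against wild type (median -1.61, beside 0.00 over all), and 11 rose and 0 fell with GSH against knockout (median 2.22, beside 0.04 over all). Krt8, a keratin of simple epithelia, averaged 16470.2 ± 869 with GSH, 3698 ± 46.5 in knockout and 12448 ± 273 in wild-type cells. Of 12 fibroblast markers 9 rose and 1 fell in knockout (median 0.42; 5 rose with quantile normalisation and 5 with the replicate block), and 0 rose and 10 fell with GSH against knockout (median -2.47). Of 9 measured type II cell markers 2 rose and 1 fell in knockout (median 0.03), and 5 rose and 0 fell with GSH against knockout (median 0.63). The 2 that rose in knockout were Napsa and Lyz2, and Lyz2 is also in the macrophage list. The 1 that fell was the surfactant gene Sftpd (-1.06), at 218.3 ± 56.1 in knockout and 448.0 ± 52.2 in wild-type cells. Among the 5 higher with GSH was Cebpa (1.28), which is also in the list of myeloid transcription factors. The part of these shifts in the Fc receptor differences was not tested.

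**Figure D3:**
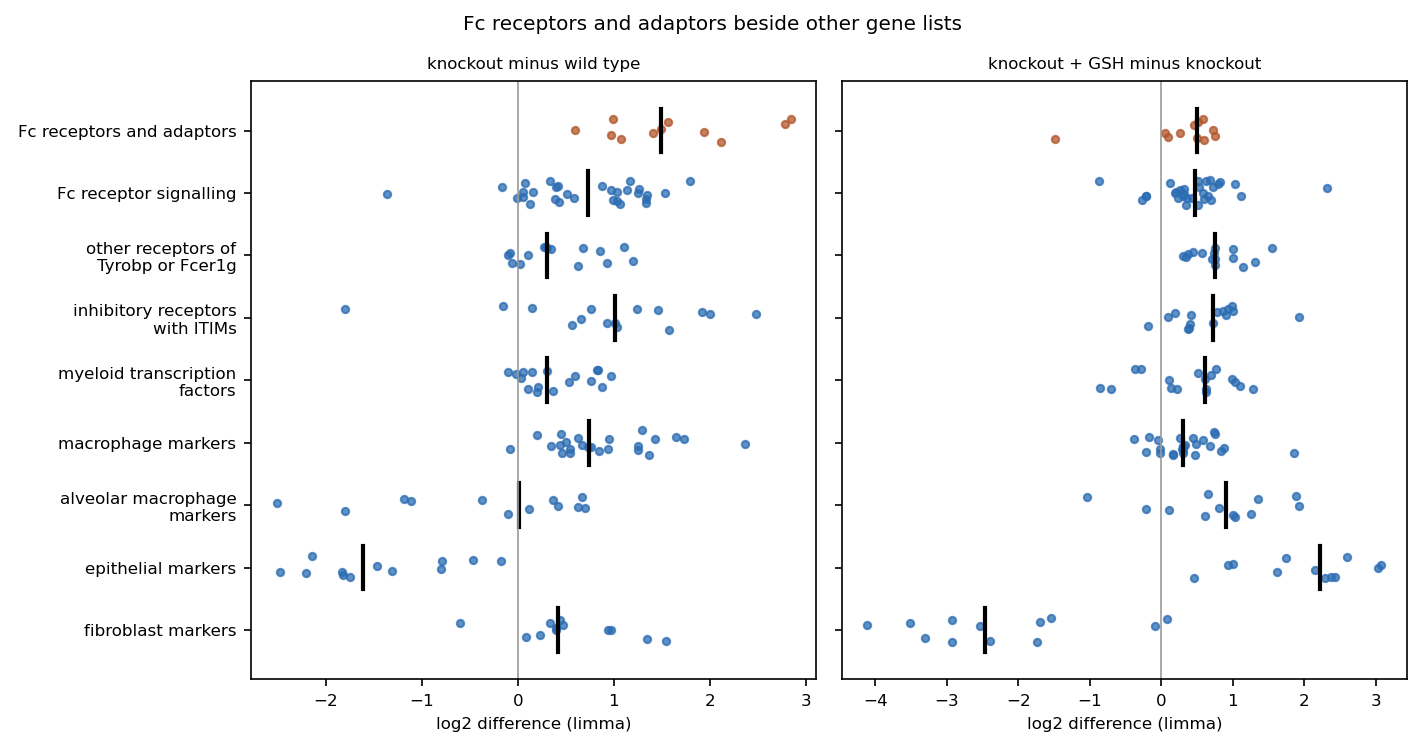
Log2 differences from limma (x) of single genes (points, 1 probe set a gene above the filter; all 11 probe sets for the Fc receptors and adaptors) in each list (rows), in knockout minus wild type and in knockout with GSH minus knockout, with the list's median as a black bar. The median of the Fc receptors and adaptors is 1.49 on the left and 0.50 on the right, and that of the macrophage markers 0.74 and 0.31. The former counts 4 probe sets of Fcgr2b and the latter 1 a gene, so the 2 medians are not on the same footing.

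Fcgr2b, Fcgr4, Fcgr3 and Fcer1g lie on chromosome 1, the first 3 side by side, Fcgr1 and Fcrls lie on chromosome 3, and Tyrobp lies on chromosome 7, in the RefSeq gene table of GRCm38.p6. Of the genes within 3 steps of a member on either side, 14 others had a probe set above the filter, of which 3 were higher and 0 lower in knockout against wild type, beside 14.6% higher and 14.6% lower of all probe sets. Sdhc, which encodes a mitochondrial respiratory subunit and lies close to Fcgr3, averaged 3624 ± 367 with GSH, 3138 ± 412 in knockout and 3031 ± 148 in wild-type cells. Adamts4, a protease gene near Fcer1g, averaged 248.2 ± 72.9 with GSH, 1123 ± 145 in knockout and 620.4 ± 44.0 in wild-type cells. Hcst, which lies beside Tyrobp and encodes the adaptor DAP10, averaged 330.9 ± 53.8 with GSH, 204.6 ± 60.9 in knockout and 116.6 ± 28.7 in wild-type cells and rose by 0.79 in knockout (limma adjusted p = 0.042). These neighbours were named after their values were seen.

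The probe sets most like each of 3 members were ranked by Pearson's r of log2 signal over the 9 arrays, among 20088 probe sets of other genes. Fcer1g was followed most closely by Acod1 (0.9988), Lcp1 (0.9973), Il1b (0.9949), Evi2a (0.9947) and F7 (0.9945). Tyrobp was followed by Clec4n (0.9918), Gch1 (0.9917), Ssh2 (0.9898), Tgfbi (0.9895) and Ctsz (0.9889). Fcgr1 was followed by Mmp8 (0.999), Aif1 (0.9983), C3ar1 (0.9962), Rbpj (0.9961) and Ms4a6b (0.9954). Mmp8, like Fcgr1, differed between knockout and wild type (2.09) far more than between the knockout groups (0.10), and Acod1, like Fcer1g, stepped up at both (1.16 and 0.56). Such resemblance follows from the ranking that chose these genes. The coefficients describe 9 arrays in 3 groups and carry no test.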

How the data were processed

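Gene expression was measured on 9 Affymetrix arrays. The values deposited by the authors are probe set intensities on a linear scale. Their 2% trimmed mean, averaged over the 9 arrays, was 500. The summarising software is not given in the sources read here. Total RNA was purified with Trizol followed by an RNeasy column, per the labels' protocols.

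From these, 64 control probe sets were left out, 2 values at 0 were set to 0.1, and log2 was taken with no further normalisation. By the platform annotation that GEO holds, which can be old, 34945 probe sets carried a single symbol, 932 more than 1 and 9160 no symbol. Probe sets with a mean log2 signal below the median were left out, which set the threshold at a geometric mean of 116. A limma model (version 3.58.1, R 4.3.3) covered the 9 arrays, with group and set as terms and a trend of variance on signal, and had 5 residual and 6.08 prior degrees of freedom. Adjusted p-values are Benjamini-Hochberg over the 22519 probe sets kept, and calls use 0.05. The limma step was tested on simulated data. Changes of 1 member relative to another were fitted by least squares with the same terms.

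The replicate numbers 2, 3 and 4 occur in both knockout groups, and deviations from group means of same-numbered arrays correlated at 0.32, 0.289 and 0.667, all above 0.1, and the replicate block was therefore run as for paired arrays. The correlations followed the set as much as the number: arrays of set 2 with different numbers gave 0.24 and 0.39 between these groups, and the knockout and wild-type arrays numbered 4, of different sets, gave -0.485, so the numbers are no separate evidence of pairing. No array column was identical to another. The members and lists were chosen with earlier results of these data known. From each list, which used 1 probe set a gene (the brightest), up to 4 called genes of smallest p a comparison could be named, and any gene of the lists of other Fc receptors and macrophage markers. The alternatives tried were quantile normalisation, other filters, an offset of 16, a floor at the control level, no set term, the replicate number as a block, only the arrays compared, no intensity trend, the fold rule that the series' design states, each set alone and each array left out.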

Additional observations from a re-analysis of the deposited data

How the results depend on the processing

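The 11 member probe sets above the filter kept their direction in all 3 comparisons under every alternative run on them. Over all 12, 663 differences were recomputed, of which 636 moved by less than 1 SD between arrays, 27 by more and 0 that had been called changed sign. Many of these could not move. Other filters, the intensity trend and the set term, which is balanced over the groups, do not alter a difference. Nor does fitting only the arrays compared, or leaving out an array of the third group. The 636 are therefore no measure of stability. The dimmer Fcgr1 probe set passed the threshold with GSH against knockout without the intensity trend, which made 8 called higher in place of 7. Counts over the whole array moved more. In knockout against wild type 6560 probe sets were called, and 2774 without the set term, 3253 with the replicate block in place of the set and 2074 by the fold rule. With GSH against knockout 7964 were called, and 4574 without the set term and 3158 by the fold rule, with 5824 under the replicate block. With GSH against wild type 10074 were called, and 6181 without the set term, 6586 with the replicate block and 4260 by the fold rule. The cause was not tested. Leaving out each array in turn gave 4500 to 6825, 6659 to 7847 and 8184 to 10452 calls in the same order. The replicate block changed no call of a member. Counts for the gene lists were recomputed under alternatives chosen after seeing the data, and 109 of 1710 moved by more than 1.5 times. Among them, myeloid transcription factors higher in knockout fell to 5 in place of 8 without the set term, fibroblast markers higher in knockout to 5 in place of 9 with quantile normalisation and with the replicate block, and alveolar macrophage markers lower in knockout to 3 in place of 5 with the 70th percentile filter. Signals near the control level, such as those of Fcer1a and the fifth Fcgr2b probe set, have no order on these arrays.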

Other observations

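Fcrls, the member whose signal was highest in knockout cells without GSH, was set beside other genes after its values had been seen. The probe sets closest to it over the 9 arrays, by Pearson's r of log2 signal among 20088, were those of Slc13a3 (0.9937), Ifit1 (0.9906), Igtp (0.9903), Igfbp5 (0.9873) and Gbp6 (0.9869). Slc13a3, a dicarboxylate transporter gene, averaged 357.1 ± 31.4 with GSH, 1007 ± 73.2 in knockout and 164.0 ± 13.0 in wild-type cells. Igtp and Gbp6, both interferon-inducible GTPase genes, averaged 1250.0 ± 63.7 and 532.5 ± 17.7 with GSH, 1787 ± 89.3 and 931.0 ± 95.2 in knockout and 950.2 ± 36.7 and 331.4 ± 25.3 in wild-type cells (SD, n = 3 each). All 5 genes were highest in knockout cells and lowest in wild-type cells, an order that follows from choosing them by likeness to Fcrls. The coefficients are a description of 9 arrays and carry no test.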
